A study of Mus musculus with 3 samples.

Results

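Trac, Trbc1 and Trbc2 are the constant-region genes of the alpha-beta T-cell receptor of the mouse. They were taken by symbol, and these 3 genes of 55536 annotated genes were followed through every deposited table of the series. The material was total RNA of splenic T cells whose label carries the name CD3, from virgin female B6CASTF1/J mice 66 days old, a cross whose dam was C57BL/6 and whose sire was CAST/EiJ. No treatment and no engineered allele is given in the labels. The 3 libraries formed 1 group, and the labels give them the biological replicate numbers 1, 2 and 3. Each library was made strand-specifically from 300 ng of RNA with ERCC spike-in transcripts. All 3 biosample records in the labels name the same donor record, so that SDs and p-values cover the spread of these samples alone, and that spread may be technical.

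An alpha-beta T-cell receptor pairs an alpha chain with a beta chain. Each chain joins a variable domain, assembled by recombination of V and J segments (with a D segment in the beta chain), to a constant domain, a transmembrane segment and a very short cytoplasmic tail. Trac encodes the only alpha constant region. Trbc1 and Trbc2 are near-copies that each follow their own cluster of D and J segments, and a productive beta chain uses one or the other. Because the receptor chains have almost no tail, signals leave the complex through the CD3 chains and the zeta chain.

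The gene tables held 16.88, 14.99 and 16.2 M estimated counts on annotated genes in replicates 1, 2 and 3. The 3 constant genes together held 17242, 15236 and 15584 of these, or 0.102%, 0.102% and 0.0962%. Against the T-cell label, all 8 listed T-cell markers were present, at a median of 172 TPM (an abundance divided by effective length and scaled to a fixed total per library). Among the lists of other cell types, the median was highest for 6 erythroid genes (9.40 TPM, led by the globin gene Hba-a1 at 25.1 TPM) and 6 natural killer genes (6.10 TPM, led by Gzma at 31.6 TPM). It was 1.44 TPM for 8 B-cell genes, 1.14 TPM for 8 monocyte and macrophage genes, and lower for plasma cells, dendritic cells and neutrophils. In such bulk samples, fewer cells of a type and less RNA per cell cannot be told apart.

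The sequences matter here because reads can be placed in Trbc1 or Trbc2 only where the genes differ. On mm10 with GENCODE annotation M21, Trbc1 lies on chromosome 6 from 41538218 to 41539881 and Trbc2 on the same strand from 41546730 to 41548352, each with 4 exons. The 518 coding bases of both have 23 substitutions, an identity of 95.56%. Exon 1, which encodes the constant domain, is 375 bases long in both genes and holds 1 of the 23, C260A, counted from the first coding base with the Trbc1 base first. The next is G383A in exon 2, which leaves 122 identical bases between them. The last 143 coding bases, in exons 2, 3 and 4, hold the other 22. Of all 23 substitutions, 18 fall on the third codon position, 3 on the first and 2 on the second. Coding bases 211 to 300 (chr6:41538428-41538517 and chr6:41546940-41547029) show the lone exon 1 difference, and bases 376 to 518 the dense differences after it, from GENCODE M21 transcripts on the plus strand with differing bases in capitals.
Trbc1, bases 211 to 300: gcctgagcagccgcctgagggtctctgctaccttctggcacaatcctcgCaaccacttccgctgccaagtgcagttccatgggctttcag
Trbc2, bases 211 to 300: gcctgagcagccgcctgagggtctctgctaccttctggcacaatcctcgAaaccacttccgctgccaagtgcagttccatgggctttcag
Trbc1, bases 376 to 518: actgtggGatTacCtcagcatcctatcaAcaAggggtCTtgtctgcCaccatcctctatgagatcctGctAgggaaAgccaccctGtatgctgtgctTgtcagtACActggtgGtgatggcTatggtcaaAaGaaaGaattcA
Trbc2, bases 376 to 518: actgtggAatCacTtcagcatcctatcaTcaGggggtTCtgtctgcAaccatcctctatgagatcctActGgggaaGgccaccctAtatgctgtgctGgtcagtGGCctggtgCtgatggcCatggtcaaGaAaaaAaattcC

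The genes also differ in how many transcript entries the annotation gives them. Trbc2 has a single entry, Trbc2-201, of 692 bases. Trbc1 has Trbc1-202, of 737 bases, and Trbc1-201, of 512 bases. Trbc1-201 reads on for 12 bases past the end of exon 3 (chr6:41539306-41539347 for the stretch printed) where Trbc1-202 is spliced to exon 4. The bases after the exon 3 end that both entries share are in capitals.
Trbc1-201, bases 471 to 512: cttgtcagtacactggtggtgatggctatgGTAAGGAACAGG
Trbc1-202, bases 471 to 512: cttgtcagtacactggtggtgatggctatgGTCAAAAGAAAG

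Trac lies on chromosome 14 from 54220521 to 54224206, on the plus strand. Its entry Trac-201 has 413 bases and ends at the stop codon in exon 3. Trac-202 has 935 bases, begins with all 413 of Trac-201 and adds 522 bases of untranslated sequence, nearly all in exon 4 (chr14:54223686-54224206). The end of Trac-201 (chr14:54223008-54223097) is shown with the stop codon in capitals, since it marks where the shorter entry stops and the longer one goes on.
Trac, bases 324 to 413: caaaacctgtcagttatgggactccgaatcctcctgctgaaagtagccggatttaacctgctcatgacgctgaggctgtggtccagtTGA

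**Figure D1:**
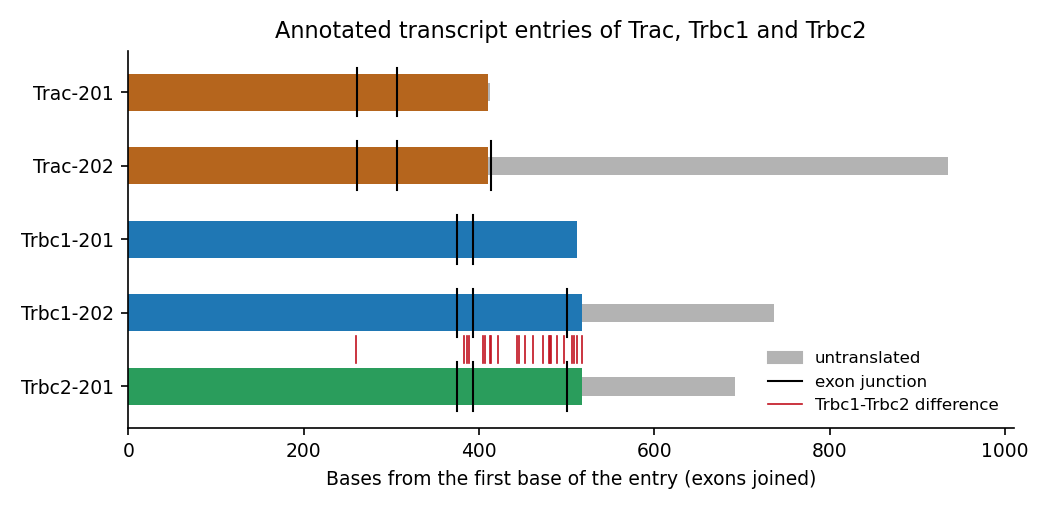
Transcript entries of the 3 genes to scale, with exons joined, in bases from the first base of each entry. Thick coloured bars are coding, thin grey bars untranslated, black lines exon junctions, and red ticks the 23 coding differences between Trbc1 and Trbc2. All but 1 of the red ticks lie after exon 1, and Trac-201 has the same bases as the start of Trac-202.

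Stretches of 101 bases, the shortest whose start positions match the effective lengths of the gene tables (length minus 100), show how far each entry can be told apart. Trac-201 has 313 such stretches and all 313 are also in Trac-202, which has 522 more of its own. Trbc1-201 has 412, of which 10 are not in Trbc1-202. Trbc1 and Trbc2 share 181 stretches, or 28.4% of those of Trbc1-202 and 30.6% of those of Trbc2-201. No other gene among 141767 transcripts shares even a stretch of 31 bases with any of the 3 genes. No annotated gene overlaps them on either strand. The nearest upstream genes are Traj1 at 1678 bases from Trac, Trbj1-7 at 2530 bases from Trbc1 and Trbj2-7 at 2873 bases from Trbc2.

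All 3 constant genes were strongly expressed in every library, and Trbc2 was highest in the gene tables. Trbc2 was at 676, 673 and 599.6 TPM in replicates 1, 2 and 3, a mean of 649.6 ± 43.3 (SD, n = 3). Trac was at 503, 501 and 473 TPM (492 ± 16.4). Trbc1 was at 455, 418 and 395 TPM (423 ± 30.3). The lowest library of each gene lay above the highest library of the next, so that the order Trbc2, Trac, Trbc1 held without overlap. Among 22298 protein-coding and T-cell receptor genes they ranked 74th, 95th and 114th by mean TPM. The level neighbours were ribosomal protein genes, Rpl15 and Rpl13 (654 and 643.5 TPM) for Trbc2 and Rpl12 (426 TPM) above Trbc1. The splicing factor gene Srsf5 (413 TPM) came just below Trbc1. The actin-severing protein gene Cfl1 (497 TPM) and Rps12-ps3 (488 TPM) stood either side of Trac. Rps12-ps3 bears a pseudogene symbol, although neighbours were taken among protein-coding and T-cell receptor genes. The libraries of each gene overlapped those of both its neighbours.

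**Figure D2:**
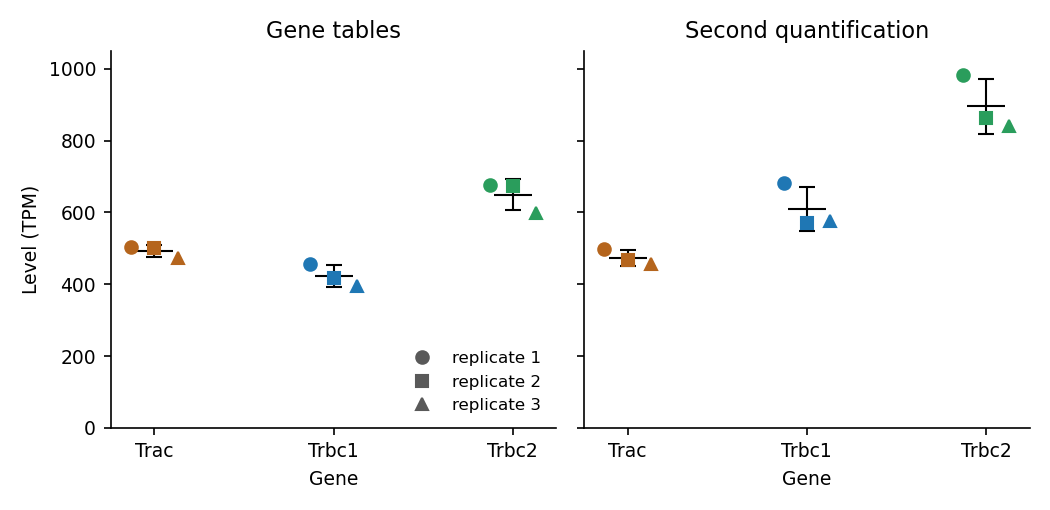
Level in TPM of Trac, Trbc1 and Trbc2 in the gene tables (left) and in the second quantification (right). Each point is a library, and the black bar and whiskers are the mean and SD of 3 libraries. Trbc2 is highest in both panels (649.6 and 895 TPM), whereas Trac is above Trbc1 on the left and below it on the right.

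In estimated counts, which are not divided by length, the gene tables gave Trbc2 6813, 6143 and 6045, Trac 5533, 5027 and 5268, and Trbc1 4896, 4066 and 4271 in replicates 1, 2 and 3. Counting error alone was 1.21% to 1.57% of these values. As a gene, Trac held whole counts with a deposited posterior SD (the uncertainty of dividing reads) of 0. So did 77.5% of 8968 genes with at least 100 counts in every library. This 0 covers the division of reads between genes only. Between Trac-201 and Trac-202 the division was uncertain, with a posterior SD of 49.4, 48.5 and 47.55 counts for each entry. Trbc1 and Trbc2 each held fractional counts, but their sums were the whole numbers 11709, 10209 and 10316. The posterior SD was the same in both genes, 25.6, 24.8 and 24.4 counts, and came to 0.523% to 0.61% of the Trbc1 count. The division of reads between the near-copies was thus stated to be uncertain by less than counting error. Reads were assigned to 1 reference genome, so this SD does not cover bases where CAST/EiJ alleles may differ from it. Such bases were not analysed here. In the second quantification the sums were also whole to within 0.006 counts, at 10869, 9561 and 9849. The deposited interval of TPM lay around a posterior mean that was below the TPM of each member in each library: for Trac in replicate 3 it ran from 438 to 472, under the TPM of 473.

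The second quantification, for which reads were matched to an index built on the same annotation, put the genes in another order. Trbc2 was again highest, at 982, 863 and 840.1 TPM (895 ± 75.9). Trbc1 came next, at 680.4, 570 and 577 TPM (609 ± 61.7). Trac was lowest, at 497, 466 and 455 TPM (473 ± 21.3). Again no libraries of one gene overlapped those of another. Among the 22298 protein-coding and T-cell receptor genes, Trbc2 ranked 82nd, Trbc1 114th and Trac 135th here by mean TPM. Mean TPM in the second quantification was 1.44-fold that of the gene tables for Trbc1, 1.38-fold for Trbc2 and 0.961-fold for Trac. Over 12060 genes with at least 1 TPM in both, the median ratio was 1.31-fold, with quartiles of 0.25 and 0.56 on the log2 scale. Trbc1 and Trbc2 (0.53 and 0.46 on the log2 scale) lay inside these quartiles and Trac (-0.06) below them: 4.39% of genes had a lower ratio than Trac, 62.3% a lower ratio than Trbc2 and 70.9% a lower ratio than Trbc1. None of the 3 was past 2-fold, where 4.53% of genes lay above and 0.755% below.

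The estimated counts of the 3 genes moved together between quantifications, and their lengths did not. Counts in the second were 0.95 ± 0.0251 (SD, n = 3 libraries) of the first for Trac, 0.931 ± 0.0095 for Trbc1 and 0.946 ± 0.0165 for Trbc2. The total counts on annotated genes were higher in the second, at 18.14, 16.39 and 17.53 M in replicates 1, 2 and 3. The 3 genes together held 0.0881%, 0.0883% and 0.0847% of these, against 0.102%, 0.102% and 0.0962% in the gene tables. The number of counts that stood for 1 TPM was 1.55-fold higher in the gene tables than in the second quantification for Trbc1, 1.46-fold for Trbc2 and 1.01-fold for Trac. The gene tables subtracted exactly 100 bases from the length of each of 139513 transcripts above 100 bases to give its effective length. In the second quantification the subtraction was 289, 267 and 274 bases in replicates 1, 2 and 3 for Trac-202, and 286.5, 266.5 and 274 for Trbc2-201. The effective length of Trbc2-201 was therefore 592 bases in the gene tables and 405, 426 and 418 bases in the second quantification. For Trac as a gene, the deposited effective length was 646.5, 651 and 654 bases, between those of its entries, 313 and 835.

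By estimated counts, the entry of the 3 genes that differed most between quantifications was Trac-201. In the first tables it held 967, 850 and 876 estimated counts in replicates 1, 2 and 3, or 17.0% ± 0.433 of the Trac counts. Divided by its short effective length, that made 36.1%, 35.2% and 34.7% of the Trac TPM. The second quantification gave Trac-201 a count of 0 in all 3 libraries and placed 5121, 4905 and 4993 counts on Trac-202. Since no stretch of 101 bases is particular to Trac-201, these counts are an allocation by the quantifier, not a count of reads that could come from that entry alone. Trac-202 alone was at 321, 325 and 309 TPM in the first tables.

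Trbc1-201, the entry that lacks exon 4, moved the other way. It held 74.2, 68.6 and 25.9 counts (posterior SD 24.3, 29.6 and 14.6) in the first tables, 2.32%, 2.59% and 0.93% of the Trbc1 TPM. It held 442.7, 504.6 and 481.5 counts in the second quantification, 16.5%, 22.4% and 20.2% of the Trbc1 TPM. The libraries of the second lay above those of the first without overlap. By a rule chosen after these values were seen, 42033 entries of 5755 genes with at least 10 TPM in both quantifications and more than 1 entry gave the background. Among them, 8.35% lost and 8.02% gained more than 10 percentage points of their gene's TPM in the second quantification. These shares are per entry, over genes with any number of entries above 1, and no share per gene was taken. How common such a shift is in genes with a pair of entries is therefore not shown. Of the 4 entries of Trac and Trbc1, Trac-201 (-35.4 points) and Trbc1-202 (-17.5 points) lost and Trac-202 and Trbc1-201 gained, which in a gene with a pair of entries is a single change counted from both sides.

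**Figure D3:**
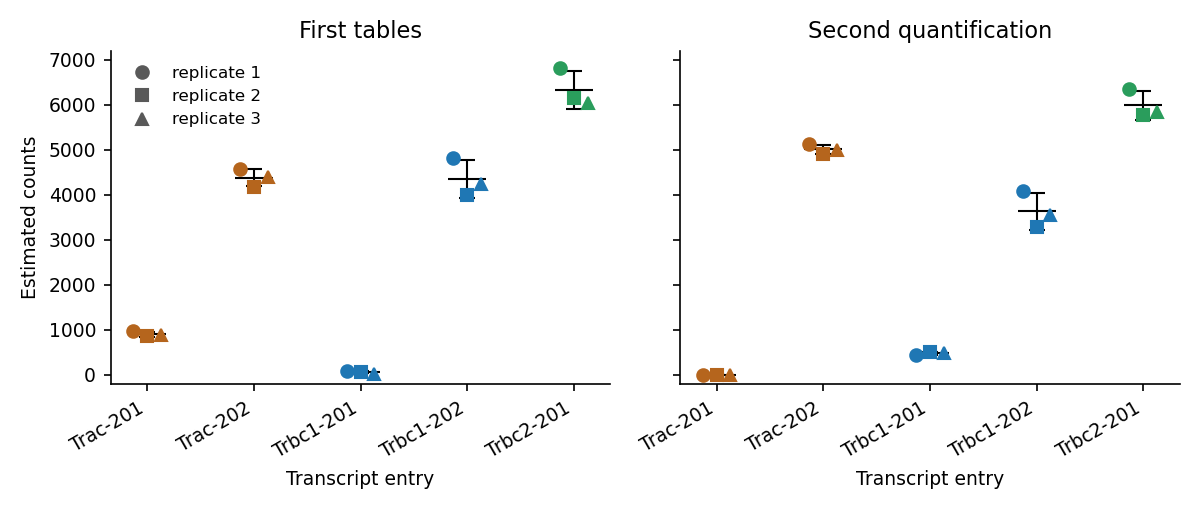
Estimated counts of each transcript entry in the first tables (left) and in the second quantification (right). Points are libraries, and the black bars and whiskers are the mean and SD of 3 libraries. Trac-201 held 850 to 967 counts on the left and 0 on the right, while Trbc1-201 held 25.9 to 74.2 on the left and 442.7 to 504.6 on the right.

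The ratio of the beta constant genes moved little with these choices, from a mean log2 ratio of 0.52 in TMM-scaled counts to 0.65 on the longest entries. Trbc2 exceeded Trbc1 by a log2 TPM ratio of 0.57, 0.69 and 0.60 in replicates 1, 2 and 3, a mean of 0.62 ± 0.06 or 1.54-fold. Trbc1 therefore held 40.2%, 38.3% and 39.7% of the summed beta constant TPM. The share was 40.9%, 39.8% and 40.7% in the second quantification. By estimated counts in the gene tables it was 41.8%, 39.8% and 41.4%. Replicate 2 had the lowest Trbc1 share in each of these 3 measures. With 3 libraries the exact two-sided sign-flip permutation test cannot go below p = 0.25, and it gave p = 0.25 here (0.25 after Benjamini-Hochberg adjustment over 4 ratios), with Trbc2 higher in 3 of 3 libraries.

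The position of Trac relative to Trbc1 did depend on them. In the gene tables the log2 ratio of Trac to Trbc1 was 0.14, 0.26 and 0.26 (0.22 ± 0.07, or 1.17-fold). It was -0.36 ± 0.08 in the second quantification, where Trbc1 was 1.29-fold higher, and -0.38 ± 0.08 when only the longest entry of each gene was used. When all counts of each gene were divided by the effective length of its longest entry, an alternative added after seeing the data, Trac was at 389, 391 and 370.5 TPM and the log2 ratio to Trbc1 was -0.13 ± 0.07. Within each of these 4 settings all 3 libraries had the same sign. The exact two-sided sign-flip p was 0.25 in each, the smallest possible (0.25 adjusted over the 4 ratios of the gene tables). Relative to Trbc2, Trac was lower in every setting, with a log2 ratio of -0.43, -0.43 and -0.34 in the gene tables (-0.40 ± 0.05, Trbc2 1.32-fold higher, the same exact p) and -0.92 ± 0.06 in the second quantification.

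The summed beta constant genes exceeded the alpha constant gene under every measure, by an amount that varied with the measure. Summed Trbc1 and Trbc2 TPM was 2.25, 2.18 and 2.10 times that of Trac in replicates 1, 2 and 3, a log2 ratio of 1.12 ± 0.05 (exact two-sided sign-flip p = 0.25, 0.25 adjusted, 3 of 3 libraries). It was 3.35, 3.07 and 3.11 times in the second quantification. With all counts divided by the longest entry length it was 2.90, 2.78 and 2.68 times. When only the longest entry of each gene was used, the mean log2 ratio was 1.74 ± 0.06, or 3.34-fold. In estimated counts, with no division by length, it was 2.12, 2.03 and 1.96 times in the gene tables and 2.12, 1.95 and 1.97 times in the second quantification. The counts thus gave close ratios in both quantifications, and the TPM ratios did not overlap.

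**Figure D4:**
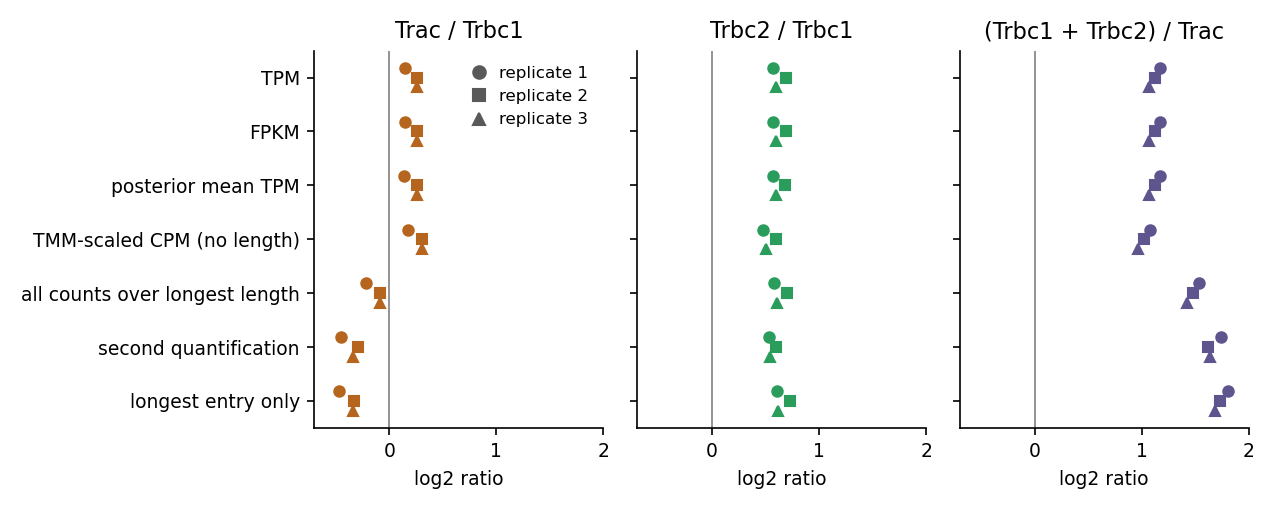
log2 ratios of Trac to Trbc1, Trbc2 to Trbc1, and summed Trbc1 and Trbc2 to Trac under 7 ways of taking the levels. Each point is a library and the grey line is equal level. The Trac to Trbc1 ratio lies above 0 in the upper 4 settings and below 0 in the lower 3, while Trbc2 is above Trbc1 and the beta sum above Trac in all.

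No member was called for its spread between the libraries. The coefficient of variation of TPM was 3.34% for Trac, 7.17% for Trbc1 and 6.67% for Trbc2. All 3 were lowest in replicate 3 by TPM, as were 44.8% of 13280 genes tested. After TMM scaling of counts, Trac was lowest in replicate 1 (323, 338.5 and 329 CPM), whereas Trbc1 (286, 274 and 267) and Trbc2 (398, 414 and 377) stayed lowest in replicate 3. An edgeR test of each gene's spread against genes of like abundance called 0 of the 3 members, where 0.565% of genes were called. The edgeR adjusted p (Benjamini-Hochberg) was 0.997 for Trac, 0.997 for Trbc1 and 0.996 for Trbc2, with unadjusted p of 0.704, 0.446 and 0.272. None had an unadjusted p under 0.05, also after DESeq2 scaling, where 755 of 13280 genes (5.69%) did in the edgeR test. A p above the threshold does not show that the libraries were alike. The summed TPM of the 8 T-cell markers was 1510, 1510 and 1430 and also lowest in replicate 3, that of the 6 erythroid markers was highest in replicate 2 (54.2, 96.9 and 42.6), and that of the 6 natural killer markers was highest in replicate 1 (64.2, 46.7 and 50.9). Their part in the members' differences was not tested.

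The genes whose profile over the 3 libraries came closest to each member, among 638 genes of at least 100 TPM, were named by the smallest largest difference in log2 TPM after centring each gene on its own mean. For Trac these were Cdc42, a small GTPase of the actin skeleton, Ppia, a prolyl isomerase, and the splicing factor gene Srsf6, with differences of 0.0025 to 0.0039. For Trbc1 they were Cytip, a cytohesin-binding protein, the pseudogene Rpl28-ps3 and the receptor kinase gene Grk2 (0.0045 to 0.0092). For Trbc2 they were the kinase gene Stk17b, the AP-1 factor gene Jund and the class I antigen-presenting gene H2-K1 (0.0048 to 0.01). With 3 libraries such profiles are not rare: 227, 51 and 73 genes lay within 0.05 of Trac, Trbc1 and Trbc2. The differences of the named genes are smaller than the counting error of the members alone (1.21% to 1.57%). Nothing is therefore read from which genes came nearest.

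The other chains of the receptor complex had lower TPM than each constant gene in every library of the gene tables. The annotated entries of the constant genes hold no variable-region bases, although a receptor chain also has a variable domain. How far this moves their TPM against the partners, or that of the beta genes against Trac, was not tested. Cd3e, which binds the receptor chains and carries an activation motif, was at 326, 323 and 307 TPM. Cd3d, its alternative partner in the CD3 dimers, was at 197, 189.7 and 197 TPM, and Cd3g at 188, 182.5 and 164 TPM. Cd247, which encodes the zeta chain, was at 133, 134 and 136 TPM. No library of these 4 genes reached the lowest library of Trbc1 (395 TPM). On Trac-202 alone, which leaves out the counts placed on Trac-201, the gap between Trac and Cd3e was not seen. Trac-202 alone, at 321, 325 and 309 TPM, was below Cd3e in replicate 1 and just above it in replicates 2 and 3. With all Trac counts kept and divided by the longest entry length, Trac was at 389, 391 and 370.5 TPM, above Cd3e in every library. In the second quantification, where Trac-201 had a count of 0, Trac was 1.18 to 1.28 times Cd3e. In estimated counts of the gene tables, which are not divided by length, Cd3e held 7363, 6841 and 7165, more than each constant gene in every library. Of the 4 partners, 0 passed the spread test in edgeR and 0 had an unadjusted p under 0.05, where 0.565% and 5.69% of all genes did.

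Set against these partners in TPM, Trac was 1.54 ± 0.00459, Trbc1 1.33 ± 0.0616 and Trbc2 2.04 ± 0.0729 times Cd3e. The SD of the first ratio is smaller than the counting error of Trac alone (1.34% to 1.41%), so nothing is read from its size. Against Cd247 the ratios were 3.67 ± 0.166 for Trac, 3.15 ± 0.263 for Trbc1 and 4.85 ± 0.378 for Trbc2. In the second quantification the ratios to Cd3e were 1.23 ± 0.0514, 1.59 ± 0.026 and 2.33 ± 0.036. Cd3d was spread most there, at 159.7, 278 and 210.2 TPM, and the ratio of Trac to Cd3d ran from 1.68 to 3.11, against 2.41 to 2.64 in the gene tables.

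**Figure D5:**
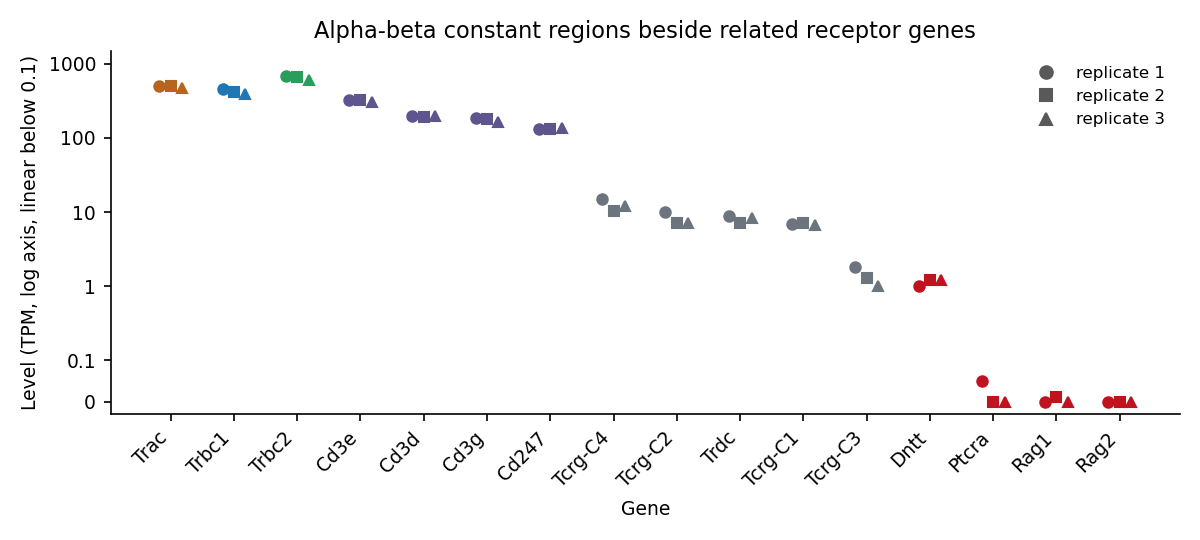
TPM in the gene tables of Trac, Trbc1 and Trbc2 beside the CD3 and zeta chain genes (purple), gamma-delta constant regions (grey) and pre-receptor and recombination genes (red), on a log axis that is linear below 0.1 TPM. Points are libraries. The lowest alpha-beta constant gene value, 395 TPM, lies above all values of the other genes.

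The constant regions of the gamma-delta receptor lay far below in TPM. Trdc, the delta constant region, was at 8.81, 7.12 and 8.20 TPM, and the gamma constant regions ranged from Tcrg-C4 at 15.0, 10.3 and 12.2 TPM to Tcrg-C3 at 1.80, 1.30 and 1.01 TPM. For Trdc the gap was smaller in estimated counts, which are not divided by length. It held 565, 413 and 526 counts, the most of the 5 genes, against 5533, 5027 and 5268 for Trac. Of the 5 gamma-delta genes, 4 had enough counts for the spread test in edgeR and 0 passed it, with 0 at an unadjusted p under 0.05, against 0.565% and 5.69% of all genes.

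Genes that act while receptors are first assembled were at or near 0. Rag2, a subunit of the recombinase, had a count of 0 in all 3 libraries of the gene tables, which allows up to 3 counts per library. Rag1, the other subunit, had 0, 1 and 0 counts, and Ptcra, the pre-receptor alpha chain that pairs with the beta chain in the thymus, had 1, 0 and 0. Dntt, the enzyme that adds bases at the junctions, had 30, 35 and 38 counts, or 1.00, 1.23 and 1.21 TPM. In the second quantification Rag2 was at 0.26, 0.22 and 0.17 TPM and Ptcra at 0.97, 0.51 and 0.39 TPM. The constant genes thus stood at 395 to 676 TPM in libraries where these 4 genes stayed below 2 TPM in both quantifications.

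The D and J segments that precede Trbc1 and Trbc2 gave no values to set beside the constant genes. All 16 annotated beta D and J segments had a count of 0 in both quantifications and an effective length of 0 in the gene tables, so these zeros do not measure their use. The share of the Trbj1 cluster could not be set beside the Trbc1 share.

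The genes that carry the signal from the receptor were present in all libraries. Of 32 genes for kinases, adaptors, co-receptors and their inhibitors, 32 were tested and 0 passed the spread test in edgeR, where 0.565% of all genes did. An unadjusted p under 0.05 was found for 2, against 5.69% of all genes, a share near that background. They were Cd5, an inhibitory surface receptor (99.5, 109 and 89.3 TPM), and Cblb, a ubiquitin ligase that restrains signalling (84.5, 63.4 and 64.5 TPM), both named after their values were seen. The median level of the 32 genes was 94.1 TPM, against 9.42 TPM over all genes tested. The phosphatase gene Ptprc (CD45) at 541 TPM was the highest, above Trac and Trbc1 and below Trbc2, followed by Lck, the kinase that starts receptor signalling, at 321 TPM. Lowest were Bcl10 at 23.7 TPM and Nck1 at 16.2 TPM, both adaptors. By TPM, 22 of the 32 were lowest in replicate 3, where 44.8% of all genes tested were.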

How the data were processed

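Total RNA was measured in 3 libraries, with 3 tables used for each. Per the file headers, the gene tables and first transcript tables hold estimated counts, TPM, FPKM, posterior SDs and intervals, and, in the latter, the percent of each gene held by each entry. The second transcript tables, deposited by the authors, hold estimated counts and TPM, summed here per gene. Per the deposited notes, the build was mm10 with GENCODE M21. For both, the tools were not given in the sources used here. Reads were assigned to 1 reference genome, and parental alleles were not analysed here. The 26248 entries named only by a number and the spike-ins stayed out of library sizes and tests.

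The members and gene lists were chosen with earlier results of these data known. Named genes are the members, the highest 2 and lowest 2 of each list with those past the spread test (in short lists nearly all genes), the 3 genes nearest in profile and the neighbours in level. Cd5 and Cblb fall outside this rule. Ratios were tested by exact sign-flip permutation. Spread was tested on rounded counts in edgeR 4.0.16 (R 4.3.3) with an intercept-only quasi-likelihood fit, filterByExpr and TMM, and checked on simulated data. Alternatives used FPKM, the second quantification, the posterior mean of TPM, CPM, a pseudocount of 1, the longest entry, other totals, filters and DESeq2 1.42.0 size factors. PCR copies are not independent molecules, so limits from counts cover counting error only.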

Additional observations from a re-analysis of the deposited data

How the results depend on the processing

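Reversed directions concerned only the log2 ratio of Trac to Trbc1 (0.22), which was -0.36 in the second quantification, -0.38 on the longest entries and -0.13 on the longest length, an alternative added after seeing the data. Trac TPM (492) was 473 in the second quantification, 472 as posterior mean, 318 on its longest entry, 383 on the longest length, 330.3 as TMM-scaled CPM and 1382 when rescaled over protein-coding and T-cell receptor genes. For Trbc1 the second quantification, CPM and rescaling gave 609, 275.5 and 1186.5, and for Trbc2 895, 396 and 1823. The Trbc1 share (39.4%) was 40.5% in the second quantification and 41.0% in CPM. The 637 genes past 2-fold between quantifications were 139 at a minimum of 10 TPM and 2260 at 0.1 TPM. The 75 genes called for spread by edgeR became 303 without a filter, 28 with a non-robust trend and 35 to 85 with 1 replicate left out (43, 85 and 35 without replicates 1, 2 and 3), and no member was called in any of these. The causes were not tested. The share of the Trbj1 cluster had no value under any setting, since all segments were at 0. No paired analysis was possible because all libraries form 1 group. Depth limits genes of a few counts (Rag1, Rag2, Ptcra), not the members.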
